A study of Mus musculus with 8 samples.

Results

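The genes described are 10 imprinted genes of the growth network in the mouse spinal cord: H19, Igf2, Dlk1, Meg3, Peg3, Cdkn1c, Plagl1, Grb10, Mest and Ndn. They were taken by gene name from tables of 41325 genes, and all 10 were found and passed the filter on low counts that kept 17067 genes. RNA was sequenced from lumbar and thoracic cord at postnatal day 14 in 8 libraries, 2 for each segment and genotype. The wild-type group (WT) is labelled C57BL/6J. The triple knockout group (TKO) lacks Mir34a, the Mir34b and Mir34c cluster and the Mir449 locus on both alleles, and its strain is not given in the labels used here. The series title names spinal muscular atrophy, a motor neuron disease, but none of these 8 libraries is labelled as a disease model. Whether the libraries came from separate mice, and whether lumbar and thoracic tissue was taken from the same mice, is not stated in the labels. The p-values therefore describe the spread among these libraries, part of which may be technical.

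Imprinted genes are transcribed mainly from the copy inherited from one parent. Many of them set the pace of fetal and early postnatal growth, and as a group they are switched down in many tissues after birth. Genes active on the paternal copy, such as Igf2, Dlk1, Peg3, Plagl1 and Mest, tend to promote growth, whereas genes active on the maternal copy, such as H19, Cdkn1c and Grb10, tend to restrain it. In brain and cord, Igf2 is known as a product of the meninges, choroid plexus and blood vessels, Ndn as a gene of postmitotic neurons, and Grb10 as a gene read from the paternal copy in neurons. The reads counted here do not tell the parental copies apart.

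The deleted family acts through a shared seed, the bases 2 to 8 that pair with target transcripts. The mature 5p strands below come from RefSeq (GRCm38.p6), with the seed in capitals, because their match was searched in the imprinted genes.
mmu-miR-34a-5p: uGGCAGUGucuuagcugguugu
mmu-miR-34b-5p: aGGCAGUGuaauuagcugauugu
mmu-miR-449a-5p: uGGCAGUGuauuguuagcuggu
mmu-miR-449c-5p: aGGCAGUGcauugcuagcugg
All 4 carry the seed GGCAGUG, whose DNA match on the sense strand is CACTGCC. In the longest annotated 3′ UTR per gene (GENCODE vM21, GRCm38), 2585 of 15039 tested genes held that match at least once, which is 17.19%. Of the 8 protein-coding genes described here, Igf2 held it, at 2 places in a 3′ UTR of 3050 bases on the minus strand of chromosome 7. The noncoding Meg3 held it once in a transcript of 14548 bases on the plus strand of chromosome 12. The other 8 genes held 0 matches in the windows searched. The stretches below show each match in capitals with its flanks.
Igf2, first site (chr7:142652592-142652598): taaggagatggCACTGCCaagtgatacat
Igf2, second site (chr7:142651807-142651813): tcccagctggcCACTGCCagttggggggg
Meg3 site (chr12:109566738-109566744): cccaggcttcaCACTGCCtggtgcatggt
Both Igf2 matches are followed by an A and the Meg3 match is not. A match describes these letters and is not a measured binding site. The deleted loci lie on chromosomes 4, 9 and 13, and the 10 genes lie on chromosomes 6, 7, 10, 11 and 12.

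Libraries held 16195212 to 20907819 gene reads, so that a count of 0 would allow up to 0.153 to 0.174 CPM (reads per 1000000 gene reads, from 3 reads over the TMM-adjusted library size, for counting error only). The 6 microRNA precursors of the deleted loci had 0 reads in every library of both genotypes, which checks no label, since the kit selects polyadenylated RNA. Gpx8, which lies at the Mir449 locus, ranged from 4.99 to 7.35 CPM in TKO and from 13.4 to 19.6 CPM in WT (adjusted p = 0.0254, edgeR). Cdc20b, at the same locus, went the other way, with 52 reads over the TKO libraries and 3 over the WT libraries (adjusted p = 0.0611). Hox genes of the lumbar cord summed to 119 to 144 CPM in lumbar libraries and 8.19 to 25.0 CPM in thoracic libraries, as the segment labels state. The TKO replicate 2 libraries stood apart in both segments. Mitochondrial transcripts took 4.99% and 6.53% of their reads, against 9.45% to 16.8% in the other 6, and intron reads took 6.23% and 6.69%, against 4.39% to 5.22%.

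The 10 genes spanned a wide range of level per transcript length. By the deposited RPKM (exon reads scaled to exon length and library size), averaged over the 8 libraries, Meg3 was highest at 136 and Ndn followed at 47.7. Both stood above the next gene in 8 of 8 libraries. Peg3 was at 31.3 RPKM, above Igf2 (17.9) in 7 of 8 libraries. Igf2 was above Cdkn1c (12.5) in 5 of 8 libraries, Cdkn1c above Grb10 (10.03) in 6 of 8, and Grb10 above H19 (9.53) in 5 of 8. The order among these 4 genes therefore differed from library to library, in part with the genotype. Igf2 was above Cdkn1c in every WT library and in lumbar TKO replicate 2. Grb10 was above H19 in every TKO library and in lumbar WT replicate 2. H19 was above Dlk1 (7.16 RPKM) in 4 of 8 libraries, all of them WT. Dlk1 was above Mest (3.19 RPKM) in 7 of 8 libraries, and Mest above Plagl1 (1.81 RPKM) in 7 of 8.

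**Figure D1:**
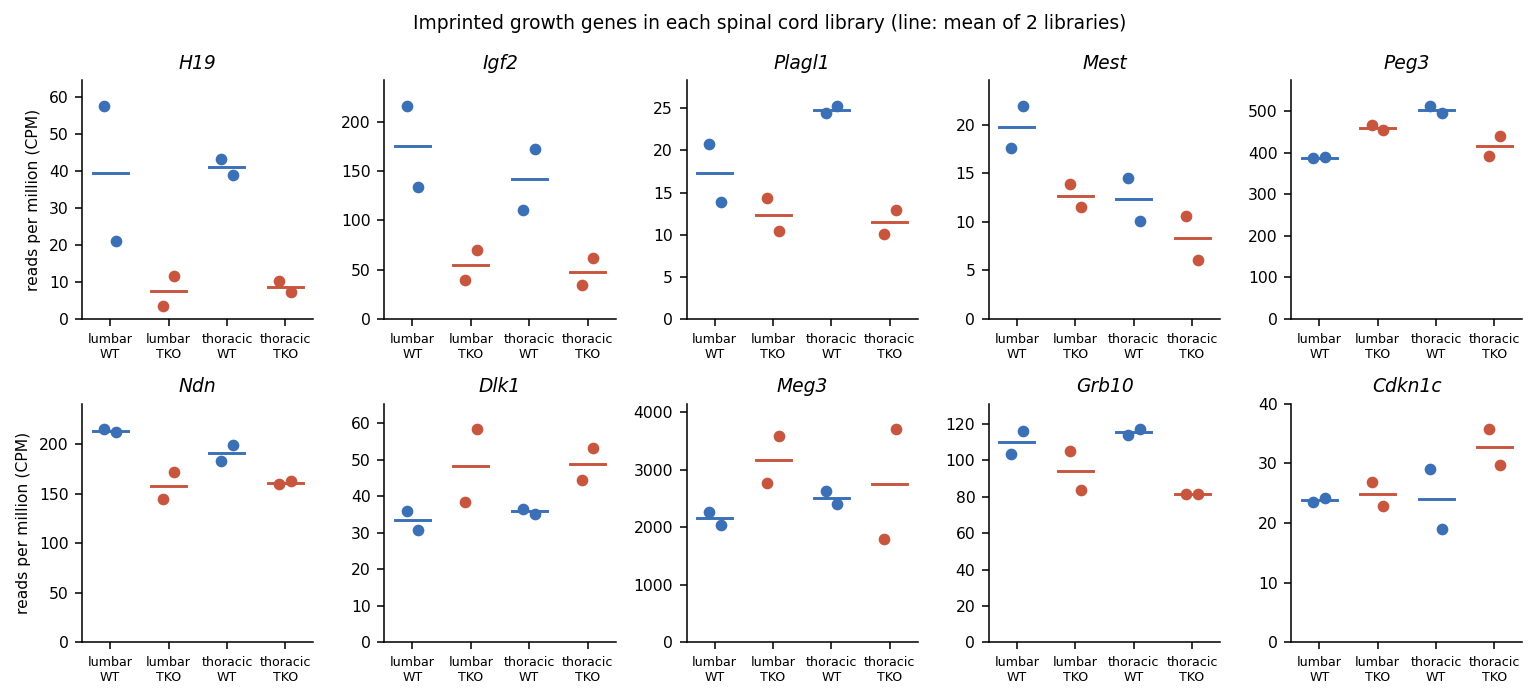
Level of each of the 10 genes in each library, in CPM (vertical axis, from 0) for the 4 groups of segment and genotype. Points are libraries and lines are the mean of 2. For H19 and Igf2 the 4 TKO points lie below all 4 WT points, for Dlk1 they lie above them, and for Meg3 the TKO points spread from 1798 to 3700 CPM.

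The genotype difference over both segments asked how loss of the family goes with the imprinted growth genes in the cord as a whole. Igf2 and H19 had the lowest values in TKO relative to WT, 3.07-fold and 4.98-fold lower on average, followed by Plagl1 and Mest. Dlk1 was the gene with the clearest difference in the other direction. None of the 10 genes passed an adjusted p of 0.05 (edgeR's quasi-likelihood test, Benjamini-Hochberg adjustment over 17067 genes), where 0.357% of all tested genes passed. DESeq2 called 3 of the 10, H19, Igf2 and Plagl1, where it called 4.56% of the 14750 genes to which it gave an adjusted p. Limma on log2(RPKM + 0.5) called 0 of the 10, against 0.0352% of all tested genes. At an unadjusted p under 0.05 there were 7 of the 10, 6 lower and 1 higher in TKO, against 19.1% of all tested genes. The 4 TKO and 4 WT libraries did not overlap for H19, Igf2 and Ndn, all lower, and for Dlk1, higher, against 10.7% of all tested genes. The median log2 fold change of the 10 genes was −0.35, beside 0.00 over all tested genes (0.0004 before rounding).

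Igf2, which encodes the secreted growth factor IGF-II (ENSMUSG00000048583, chr7:142650766-142666816 on GRCm38, minus strand), had 39.9 and 70.3 CPM in lumbar TKO replicates 1 and 2 and 216 and 134 CPM in lumbar WT. In the thoracic cord it had 34.4 and 61.5 CPM in TKO and 111 and 173 CPM in WT. Every TKO library lay below every WT library, and in both segments TKO replicate 2 was the higher TKO library. The means were 51.5 ± 17.1 CPM in TKO and 158 ± 46.2 CPM in WT (SD, n = 4 libraries each). The log2 fold change was −1.62 (SE 0.271, edgeR adjusted p = 0.0512), with −1.67 (SE 0.383) in the lumbar and −1.56 (SE 0.383) in the thoracic cord. The genotype effects of the segments differed by 0.11 (SE 0.53, unadjusted p = 0.843), less than its error.

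The Igf2 values rest almost entirely on reads that the deposited tables do not count as uniquely placed. Of 15616 reads over the 8 libraries, 183 (1.17%) were unique. Gm49394, a protein-coding model of the annotation on the same strand (chr7:142650769-142669942), covers nearly the same interval and was given 1 read. How the counting program shared reads between these models is not given in the sources used here, so the level of Igf2 is uncertain. With uniquely placed reads alone, which were 5 to 14 per TKO library and 30 to 41 per WT library, the log2 fold change was −1.82 (SE 0.311, adjusted p = 0.0448). The antisense transcript Igf2os had 35 reads in all.

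H19 (ENSMUSG00000000031, chr7:142575529-142578143, minus strand) is a noncoding RNA next to Igf2 that shares its enhancers and restrains growth. It had 3.42 and 11.6 CPM in lumbar TKO and 57.6 and 21.1 CPM in lumbar WT. Thoracic libraries had 10.3 and 7.23 CPM in TKO and 43.3 and 39.0 CPM in WT. The lowest WT value, in lumbar replicate 2, was still above the highest TKO value. The means were 8.13 ± 3.63 CPM in TKO and 40.3 ± 15.0 CPM in WT (SD, n = 4 each), which put the log2 fold change at −2.32 (SE 0.402, adjusted p = 0.0573, edgeR), the largest of the 10 genes. It was −2.40 (SE 0.571) in the lumbar and −2.23 (SE 0.565) in the thoracic cord, and the lumbar value was −1.50 without lumbar WT replicate 1. Over both segments, leaving out lumbar TKO replicate 1 gave −1.99 and leaving out lumbar TKO replicate 2 gave −2.88. With any 1 library left out, H19 ranged from −2.88 to −1.86. Such fits assume the remaining library of that group to vary like the other groups. Without lumbar TKO replicate 2, Igf2 was at −1.85.

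H19 and Igf2 each contain a microRNA gene. The strands below are shown because their seeds differ from that of the deleted family (RefSeq, GRCm38.p6, seed in capitals).
mmu-miR-675-5p, inside H19 (chromosome 7): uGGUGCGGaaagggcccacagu
mmu-miR-483-5p, inside Igf2 (chromosome 7): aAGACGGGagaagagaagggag
The precursors Mir675 and Mir483 had 0 reads in these libraries, which do not select small RNAs. For every 100 Igf2 reads there were 8.57 and 16.5 H19 reads in lumbar TKO and 26.6 and 15.7 in lumbar WT. In the thoracic cord there were 29.8 and 11.8 in TKO and 39.1 and 22.6 in WT. This ratio overlapped between the genotypes, whereas each gene alone did not.

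**Figure D2:**
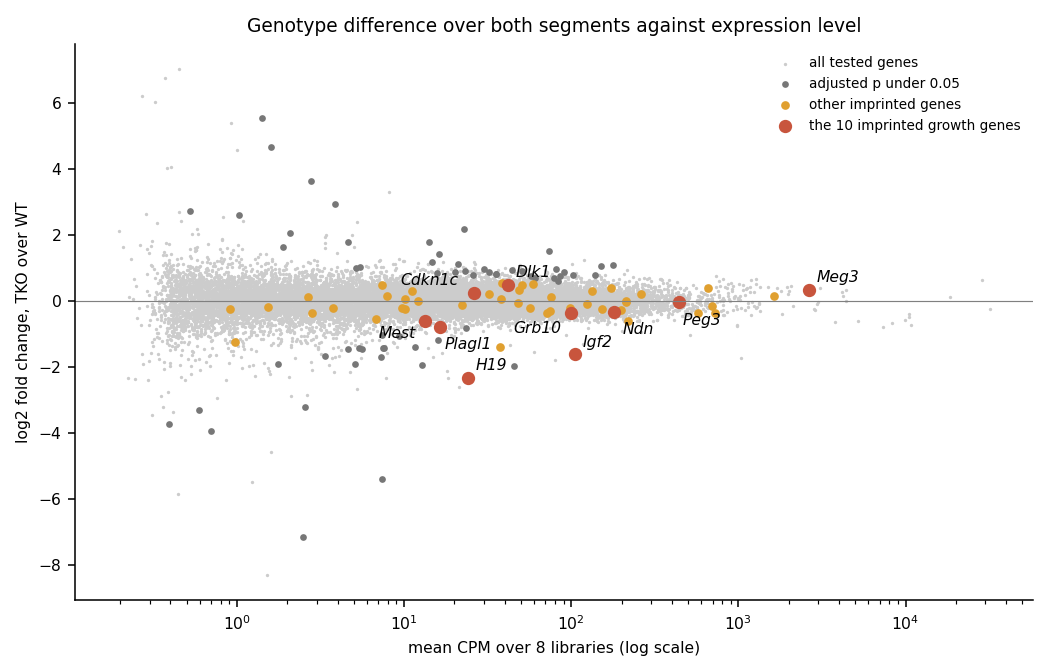
Log2 fold change of TKO over WT over both segments (vertical axis) against the mean CPM of 8 libraries (horizontal axis, log scale) for all 17067 tested genes, with genes of adjusted p under 0.05, other imprinted genes and the 10 imprinted growth genes marked. H19 at −2.32 and Igf2 at −1.62 lie at the lower edge for their level, and the other 8 genes lie between −0.80 and 0.49.

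Dlk1 (ENSMUSG00000040856, chr12:109452823-109463336, plus strand) encodes a transmembrane protein of the Notch ligand family that keeps precursor cells undifferentiated. It had 38.4 and 58.4 CPM in lumbar TKO and 36.1 and 30.8 CPM in lumbar WT. At thoracic level it had 44.5 and 53.3 CPM in TKO and 36.5 and 35.2 CPM in WT. The groups did not overlap, but lumbar TKO replicate 1 lay less than 2 CPM above the highest WT library, and the TKO replicate 2 libraries held the highest values. The means were 48.7 ± 8.94 CPM in TKO and 34.7 ± 2.62 CPM in WT (SD, n = 4 each), which is 0.49 as a log2 difference (SE 0.155, edgeR adjusted p = 0.175). Without both TKO replicate 2 libraries it was 0.26 (adjusted p = 0.764).

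Meg3 (ENSMUSG00000021268, chr12:109541001-109571726, plus strand), a long noncoding RNA of neurons read from the maternal copy of the Dlk1 region, had 2761 and 3584 CPM in lumbar TKO and 2272 and 2035 CPM in lumbar WT. The thoracic values were 1798 and 3700 CPM in TKO and 2629 and 2396 CPM in WT. The thoracic TKO pair held both the lowest and the highest value of all 8 libraries. On the log2 scale the difference was 0.34 (SE 0.215, adjusted p = 0.382). Without both TKO replicate 2 libraries it was −0.06 (adjusted p = 0.971), and without thoracic TKO replicate 2 it was 0.04 (adjusted p = 0.926), so the sign rested on those libraries. With the mitochondrial share of reads as a covariate, Meg3 was at 0.11 over both segments (SE 0.251, edgeR adjusted p = 0.880). The part of the high intron share of the TKO replicate 2 libraries in the Meg3 value was not tested.

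Plagl1 (ENSMUSG00000019817, chr10:13060504-13131694, plus strand) encodes a zinc finger factor that in mice acts on other genes of the imprinted network, Igf2 and H19 among them. It had 14.3 and 10.4 CPM in lumbar TKO and 20.7 and 13.9 CPM in lumbar WT. In the thoracic cord it had 10.04 and 12.9 CPM in TKO and 24.4 and 25.3 CPM in WT. The genotypes were well apart in the thoracic cord and overlapped in the lumbar cord. The means were 11.9 ± 2.05 CPM in TKO and 21.1 ± 5.19 CPM in WT (SD, n = 4 each). The fitted log2 fold change was −0.80 (SE 0.179, adjusted p = 0.0995), with −0.48 (SE 0.254) in the lumbar and −1.11 (SE 0.254) in the thoracic cord. The difference of these effects, −0.64 (SE 0.358), had an unadjusted p of 0.109. The lumbar value was −0.16 without lumbar WT replicate 1 and −0.74 without lumbar WT replicate 2, and with 1 library left out the difference ran from −0.95 to −0.36.

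Peg3 (ENSMUSG00000002265, chr7:6703892-6730431, minus strand), a zinc finger protein known in mice for growth and maternal behaviour, showed opposite differences in the segments. It had 468 and 454 CPM in lumbar TKO and 386 and 390 CPM in lumbar WT. Thoracic libraries had 391 and 440 CPM in TKO and 513 and 495 CPM in WT. Both lumbar TKO libraries lay above the lumbar WT pair and both thoracic TKO libraries below the thoracic WT pair. The log2 fold changes were 0.25 (SE 0.143) and −0.28 (SE 0.143), and over both segments −0.02 (SE 0.101, adjusted p = 0.939). The difference of the effects was −0.52 (SE 0.202), with an unadjusted p of 0.0292 and an edgeR adjusted p of 0.852, so it did not pass. No other of the 10 genes had an unadjusted p under 0.05 for that difference, against 3.50% of all tested genes, and 0 of the 10 passed after adjustment by edgeR, against 0.00586%. DESeq2 and limma also called 0, against 0.0117% and 0.00% of tested genes, as did the fit with the mitochondrial share as a covariate, against 0.674%.

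Mest (ENSMUSG00000051855, chr6:30723547-30748465, plus strand), which encodes a hydrolase-fold protein of mesoderm and adipose growth, had 13.9 and 11.5 CPM in lumbar TKO and 17.6 and 22.0 CPM in lumbar WT. At thoracic level it had 10.6 and 6.11 CPM in TKO and 14.5 and 10.1 CPM in WT. The lumbar genotypes did not overlap and the thoracic ones did. The log2 fold change over both segments was −0.60 (SE 0.209, adjusted p = 0.199). Copg2, a coat protein gene on the opposite strand, overlaps the end of Mest and had 14647 reads over the 8 libraries, against 1978 for Mest. The strand setting of the counting is not given in the sources used here, so reads of the shared end may not be told apart.

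Ndn (ENSMUSG00000033585, chr7:62346569-62350262, plus strand) encodes necdin, which holds postmitotic neurons out of the cell cycle. It had 145 and 172 CPM in lumbar TKO and 215 and 213 CPM in lumbar WT. The thoracic values were 160 and 163 CPM in TKO and 183 and 200 CPM in WT. All 4 TKO libraries were lower than all 4 WT libraries, though by a narrow gap between lumbar TKO replicate 2 and thoracic WT replicate 1. The log2 fold change was −0.34 (SE 0.105, adjusted p = 0.168). Neuron markers summed to 4209 to 5493 CPM in TKO and 5049 to 5943 CPM in WT, and 8 of the 12 were lower in TKO, with a median log2 fold change of −0.08. Their part in the Ndn value was not tested.

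Grb10 (ENSMUSG00000020176, chr11:11930508-12038683, minus strand) encodes an adaptor that damps insulin and IGF receptor signalling. It had 105 and 83.4 CPM in lumbar TKO and 104 and 116 CPM in lumbar WT. In the thoracic cord it had 81.3 and 81.2 CPM in TKO and 114 and 117 CPM in WT. The thoracic genotypes were apart, and lumbar TKO replicate 1 lay among the WT libraries. On the log2 scale the difference was −0.36 (SE 0.113, adjusted p = 0.170), with −0.22 (SE 0.160) in the lumbar and −0.51 (SE 0.161) in the thoracic cord. The lumbar value was −0.39 without lumbar TKO replicate 1 and −0.066 without lumbar TKO replicate 2.

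Cdkn1c (ENSMUSG00000037664, chr7:143458339-143461050, minus strand) encodes p57, an inhibitor of cyclin-dependent kinases. It had 26.9 and 22.8 CPM in lumbar TKO and 23.6 and 24.2 CPM in lumbar WT. Thoracic libraries had 35.7 and 29.7 CPM in TKO and 29.04 and 18.95 CPM in WT. The lumbar libraries could not be ordered by genotype, and the thoracic TKO pair lay above the thoracic WT pair. The fitted log2 fold change was 0.25 (SE 0.159, adjusted p = 0.385), with 0.42 without thoracic WT replicate 1 and 0.12 without thoracic WT replicate 2.

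Taken by segment, 0 of the 10 genes passed after edgeR's adjustment in the lumbar cord, where 0.0410% of tested genes passed, and 0 in the thoracic cord, where 0.0352% passed. DESeq2 called Igf2 in the lumbar cord, where it called 0.245% of the genes with an adjusted p, and Igf2 and Plagl1 in the thoracic cord, where it called 3.36%. Limma called none of the 10 in either, against 0.00586% and 0.0117%. With the mitochondrial share of reads as a covariate 2 of the 10 passed in the lumbar cord, against 1.15% of tested genes, and 4 in the thoracic cord, against 5.78%. At an unadjusted p under 0.05 the lumbar cord gave 4 of 10, Igf2, H19 and Ndn lower and Dlk1 higher, against 5.70% of tested genes. The thoracic cord gave 4 of 10, Plagl1, Igf2, H19 and Grb10, all lower, against 19.9%. Ndn and Dlk1 stood under this threshold in the lumbar cord alone, and Plagl1 and Grb10 in the thoracic cord alone. The edgeR test of the effects detected no difference between segments for them (unadjusted p = 0.395, 0.792, 0.109 and 0.243, in that order). With 2 libraries per group it could miss one. The fit that held only the 4 thoracic libraries called H19 (−2.23, adjusted p = 0.0130), against 0.139% of the genes it tested. The fit that held only the 4 lumbar libraries called 0 of the 10, and 5 genes in all.

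**Figure D3:**
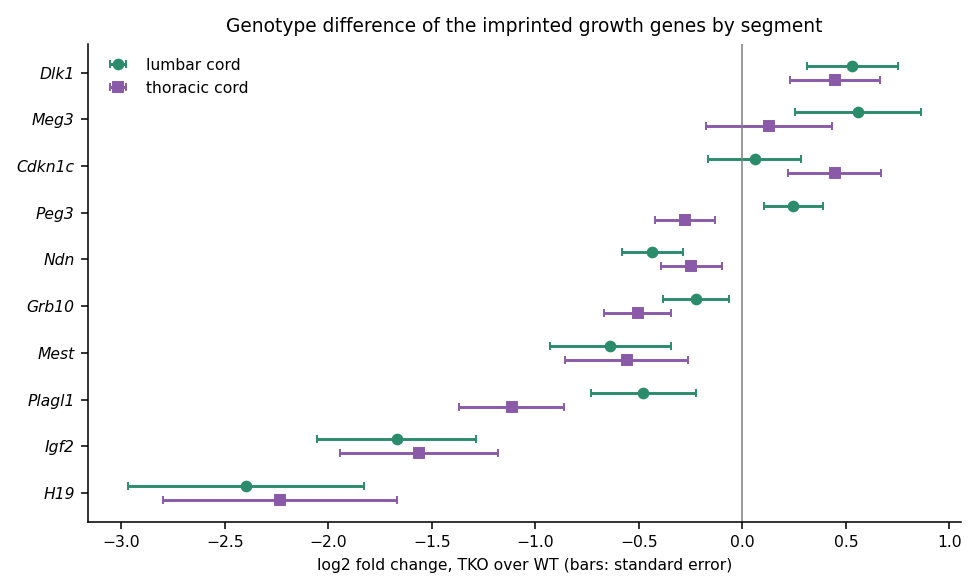
Log2 fold change of TKO over WT (horizontal axis) for each of the 10 genes in the lumbar cord (circles) and thoracic cord (squares), with standard errors from the edgeR fit of 8 libraries. The 2 estimates share a sign for 9 genes, and for Peg3 they are 0.25 and −0.28.

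The comparison of thoracic with lumbar cord over both genotypes left 0 of the 10 genes past an adjusted p of 0.05 by edgeR, DESeq2 or limma, against 0.0820%, 0.199% and 0.0645% of all tested genes. At an unadjusted p under 0.05 Mest alone stood out, against 2.41% of tested genes. It was lower in the thoracic cord, with a log2 difference of −0.64 (SE 0.209, unadjusted p = 0.0132, adjusted p = 1.00). The lumbar libraries had 11.5 to 22.0 CPM and the thoracic ones 6.11 to 14.5 CPM, with an overlap. With the mitochondrial share as a covariate, Mest passed (−0.75, adjusted p = 0.0112), against 0.258% of tested genes. The other 9 genes had differences between −0.25 and 0.20.

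Intron reads, which come mostly from unspliced transcripts, were numerous enough to describe for 4 of the genes, those with a mean of 20 or more per library. Plagl1 had 21 to 58 intron reads per library. Its exon level was 10.3 ± 2.13 CPM in TKO and 18.996 ± 4.35 CPM in WT (SD, n = 4 each), a log2 ratio of −0.89, and its intron level 1.68 ± 0.24 and 2.08 ± 0.957 CPM, a ratio of −0.31. The intron values of the genotypes overlapped and the exon ratio was the lower of the pair. Grb10 had a log2 ratio of −0.39 by exon and 0.06 by intron reads. Meg3 had 0.36 and 0.08, and Peg3 had −0.03 and 0.06. Igf2, H19, Dlk1, Cdkn1c, Mest and Ndn had too few intron reads for this description, and H19 and Ndn had 0. The annotated exons of Ndn fill its whole interval, so it has no intron to count, and those of H19 fill most of its interval.

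The imprinted neighbours of these genes were then read from a grouping of textbook domains that was made after the data had been seen. In the Dlk1 domain of chromosome 12, 6 genes were tested. Mirg, a noncoding RNA downstream of Meg3, was at 59.2 ± 6.71 CPM in TKO and 42.4 ± 3.40 CPM in WT (SD, n = 4 each, log2 0.48, adjusted p = 0.133). Rian, the noncoding RNA between them, was at 629 ± 78.4 and 815 ± 94.0 CPM (−0.37, adjusted p = 0.199). The 3 maternal noncoding RNAs of that domain therefore had values of both signs, and none passed. For each Dlk1 read there were 72.0 and 61.4 Meg3 reads in lumbar TKO and 62.9 and 66.0 in lumbar WT, and in the thoracic cord 40.4 and 69.4 in TKO and 71.9 and 68.0 in WT. Dio3, with 10 reads in all, was too low to test.

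In the Ndn domain, Mkrn3, a ring finger protein, was at 5.53 ± 0.982 CPM in TKO and 8.10 ± 0.406 CPM in WT (−0.55, adjusted p = 0.157). Snhg14, the long noncoding host of the small nucleolar RNAs, was at 195 ± 31.0 and 149 ± 25.6 CPM (0.40, adjusted p = 0.189). In the Cdkn1c domain, Cd81, a tetraspanin, was at 748 ± 43.1 and 576 ± 89.7 CPM (0.39, adjusted p = 0.157). In the Peg3 domain, Usp29 was at 66.7 ± 7.02 and 83.0 ± 16.1 CPM (−0.31, adjusted p = 0.227).

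Over all other imprinted genes listed, 0 of 21 tested paternally expressed genes passed an adjusted p of 0.05 in the genotype difference over both segments, with a median log2 fold change of −0.05. At an unadjusted p under 0.05 there were 1 higher and 5 lower of the 21, where 19.1% of all tested genes stood under it. Of them Inpp5f, an inositol phosphatase, had the smallest p, with 174 ± 20.5 CPM in TKO and 264 ± 29.8 CPM in WT (−0.60, adjusted p = 0.0963). Slc38a4, an amino acid transporter, was at 0.588 and 1.36 CPM (−1.22, adjusted p = 0.162), and Nap1l5 at 506 and 644 CPM (−0.35, adjusted p = 0.181). Of 21 tested maternally expressed genes, 3 were higher and 2 lower at an unadjusted p under 0.05, against 19.1% of all tested genes. After adjustment 1 passed, against 0.357%. Dcn, the matrix proteoglycan decorin, which is imprinted in mouse placenta and is also a fibroblast marker, fell to a mean of 21 ± 11.3 CPM in TKO, where WT had 54.2 ± 18.9 CPM (log2 −1.40, SE 0.204, adjusted p = 0.0346).

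Among receptors, binding proteins and regulators that work with the 10 genes, 26 were tested. At an unadjusted p under 0.05 there were 2 higher and 3 lower, against 19.1% of all tested genes. After adjustment 1 of the 26 passed, against 0.357%. Igf1, the postnatal counterpart of Igf2 that shares its receptor, fell to 5.31 ± 0.724 CPM in TKO, against 20.4 ± 2.32 CPM in WT (SD, n = 4 each; log2 −1.94, SE 0.146, adjusted p = 0.00158). It also passed in the lumbar (−1.72, adjusted p = 0.0352) and the thoracic cord (−2.15, adjusted p = 0.0149), the only gene of these 4 lists to do so. Igf1r, the receptor that both ligands use, was at 36.3 ± 6.59 CPM in TKO and 27.5 ± 2.71 CPM in WT (0.40, adjusted p = 0.231). Zfp57, the zinc finger protein that protects methylated imprints, was at 14.2 ± 1.01 and 18.3 ± 1.67 CPM (−0.37, adjusted p = 0.204). Grb14, an adaptor related to Grb10, was at 111 ± 10.5 and 86.0 ± 15.7 CPM (0.37, adjusted p = 0.242). Igf2bp1, an RNA-binding protein of fetal tissues, had 11 reads in all and was not tested. A further list held 12 tested genes that are not imprinted and are known to be switched down with postnatal growth. Of these, 0 were higher and 3 lower at an unadjusted p under 0.05, and 1 passed adjustment, beside the same shares of all tested genes. Gpc3, a glypican that removes hedgehog ligands and restrains growth, fell from 22.1 ± 3.82 to 9.89 ± 3.13 CPM (−1.18, SE 0.188, adjusted p = 0.0437). Sox4, a factor of immature cells, was at 24.1 and 33.9 CPM (−0.50, adjusted p = 0.224), Hmga2 at 1.68 and 2.59 CPM (−0.63, adjusted p = 0.231) and Igf2bp2 at 8.08 and 10.1 CPM (−0.33, adjusted p = 0.306).

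The letters of the promoters were searched for the hexamer of ZFP57, TGCCGC on one strand and GCGGCA on the other. The window ran from 250 bases before to 50 bases after each start (RefSeq, GRCm38.p6). Of 32851 promoters, 3813 (11.61%) held it on either strand. Of 15 promoters of 8 genes with an entry, 6 did, and they belong to Mest, Igf2, Plagl1, Grb10 and Meg3. The hexamer itself contains a CpG (a C followed by a G). The 6 promoters with it had 13 to 45 CpG, and the others of these genes had 1 to 24. The median over all promoters was 7. The share among promoters of like CpG count was not tested. The 2 promoters of Mest that held it overlap but for a few bases. The following are shown because Mest holds the hexamer at 2 places and Plagl1 encodes a factor that acts on other imprinted genes, with the hexamer in capitals.
Mest promoter (chr6:30737800-30738099, plus strand): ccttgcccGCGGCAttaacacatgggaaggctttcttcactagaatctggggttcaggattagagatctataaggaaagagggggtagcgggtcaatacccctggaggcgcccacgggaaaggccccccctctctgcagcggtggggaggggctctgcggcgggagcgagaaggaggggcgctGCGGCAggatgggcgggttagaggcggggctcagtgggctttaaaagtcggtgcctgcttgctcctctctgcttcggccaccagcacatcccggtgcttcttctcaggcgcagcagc
Plagl1 promoter (chr10:13090582-13090881, plus strand): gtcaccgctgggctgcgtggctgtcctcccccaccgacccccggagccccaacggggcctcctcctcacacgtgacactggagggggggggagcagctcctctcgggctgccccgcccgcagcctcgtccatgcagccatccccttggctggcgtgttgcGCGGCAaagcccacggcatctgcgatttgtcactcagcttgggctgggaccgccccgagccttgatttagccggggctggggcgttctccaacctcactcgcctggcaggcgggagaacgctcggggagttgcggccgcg
A match gives the letters alone, and methylation was not measured in these libraries.

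Markers of other cell types also differed between the genotypes. Of 20 markers of meningeal fibroblasts, all had a log2 fold change below 0, with a median of −1.28. At an unadjusted edgeR p under 0.05 there were 17, all lower in TKO, against 19.1% of all tested genes. Lum and Dcn passed adjustment, against 0.357%. Foxc1 (−0.996) and Col3a1 (−1.55) had edgeR adjusted p-values of 0.0573. The 20 markers summed to 276 to 536 CPM in TKO and 622 to 1005 CPM in WT. None of the 20 was at 0 in a WT library, and Slc22a6 was at 0 in 1 TKO library. In bulk tissue, fewer cells of a type and less RNA per cell cannot be told apart. Ptgds, which oligodendrocytes and meninges both make, was the most abundant of the list. Without it the remaining 19 markers summed to 344 and 455 CPM in lumbar TKO and 814 and 607 CPM in lumbar WT. In thoracic TKO they summed to 265 and 342 CPM, and in the thoracic WT pair to 509 and 645 CPM. This left-out gene was chosen after its values were seen.

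Set against the summed 20 fibroblast markers of its own library, Igf2 was at 11.4 and 13.1 CPM per 100 marker CPM in lumbar TKO and 21.5 and 20.4 in lumbar WT. In the thoracic cord it was at 12.5 and 11.7 in TKO and 17.8 and 18.1 in WT. The genotypes did not overlap on this ratio either. With Ptgds left out the ratio was 11.6 and 15.5 in lumbar TKO and 26.6 and 22.1 in lumbar WT. For the thoracic pairs it was 12.99 and 17.96 with the knockout and 21.8 and 26.8 in WT. The part of the fibroblast markers in the Igf2 and H19 values was not tested further.

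**Figure D4:**
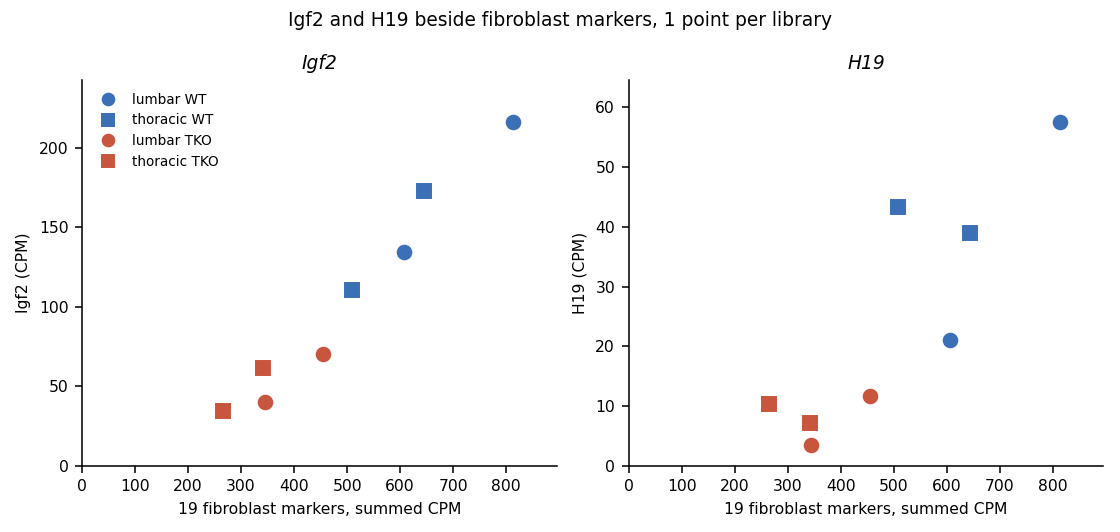
Igf2 (left) and H19 (right) in CPM against the summed CPM of 19 fibroblast markers (the list without Ptgds), 1 point per library, with genotype by colour and segment by shape. The 4 TKO libraries lie at 265 to 455 marker CPM and the 4 WT libraries at 509 to 814, and Igf2 and H19 are lower in the former.

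Of the other lists, the 15 cell cycle markers were all below 0, with a median of −0.83, and summed to 102 to 163 CPM in TKO and 184 to 217 CPM in WT. At an unadjusted edgeR p under 0.05, 14 of the 15 were lower, against 19.1% of all tested genes. Nusap1 (−1.05, adjusted p = 0.0734) and Mki67 (−0.96, adjusted p = 0.0791) had the smallest p, and none passed, against 0.357%. The 6 red cell markers summed to 43.3 to 102 CPM in TKO and 156 to 360 CPM in WT. All 6 were lower at an unadjusted edgeR p under 0.05. Hba-a2, an alpha globin, passed (−1.96, adjusted p = 0.0356), beside the same shares of all tested genes. Of 10 oligodendrocyte markers 9 were above 0, with a median of 0.41. At an unadjusted edgeR p under 0.05, 8 were higher. Klk6 (0.93, adjusted p = 0.0228) and Opalin (0.80, adjusted p = 0.0304) passed, again beside those shares. The oligodendrocyte list summed to 59543 to 75643 CPM in TKO and 49477 to 51609 in WT. Astrocyte markers summed to 7661 to 9311 CPM in TKO and 6944 to 7698 in WT. Ependymal markers summed to 36.9 to 48.3 CPM and 25.8 to 35.0 CPM. Endothelial and mural markers, at 377 to 503 and 442 to 577 CPM, overlapped between the genotypes. Muscle markers summed to 34.2 to 69.3 CPM in TKO and 32.5 to 127 CPM in WT, which also overlapped. The 127 CPM came from thoracic WT replicate 1, and the other WT libraries had 32.5, 34.9 and 41.9 CPM. The median of the summed values was 45.8 CPM in TKO and 38.4 CPM in WT. Pvalb made up 65.2% of the muscle sum on average. Of 11 tested muscle markers 9 were below 0, with a median of −1.42. At an unadjusted edgeR p under 0.05, 3 were lower and 1 higher, against 19.1% of all tested genes, and none passed. Tnnt3, the muscle marker of smallest p, ran from 0.851 to 16.5 CPM in WT and from 0.290 to 1.89 CPM in TKO. The part of these lists in the values of the imprinted genes was not tested.

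For each gene, those whose log2(CPM + 0.5) went most closely with it over the 8 libraries were listed among 13782 genes, as a description. The libraries fall into 2 genotypes and share depth and tissue, so a high coefficient can follow from the genotype alone. For Igf2 they were Col1a2, the collagen I alpha-2 chain (Pearson r = 0.988), Lox, the lysyl oxidase that crosslinks collagen (0.980), and Col1a1 (0.977). For H19 they were Hba-a2 (0.993), Nov, a matricellular protein (0.990), and Hbb-bs, a beta globin (0.971). For Ndn they were Fhl2 (0.983), Crtap, which modifies collagen (0.979), and Mcu, the mitochondrial calcium channel (0.967). For Mest they were Fgf7 (0.976), Ocln (0.962) and Ppp1r1c (0.956). For Grb10 they were Synpr, a synaptic vesicle protein (0.995), Maf (0.982) and Gng4 (0.976). For Dlk1 they included Clip3 (0.982) and Rab36 (0.968). For Meg3 they were Ubap1l (0.985), Cplane1 (0.979) and Wdr20 (0.969). For Peg3 they were Osbpl6 (0.983), Kantr (0.973) and Dtna (0.964). For Cdkn1c they were Diablo (0.986), Hspb8 (0.937) and Taf6l (0.922). For Plagl1 they were Pcdhga1 (0.961), Map3k1 (0.960) and Pde5a (0.959). None of the 10 genes was among the closest 3 of another, though some of them also went closely together. Igf2 had r = 0.938 with Ndn and 0.884 with H19, and Dlk1 had −0.899 with Grb10.

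**Figure D5:**
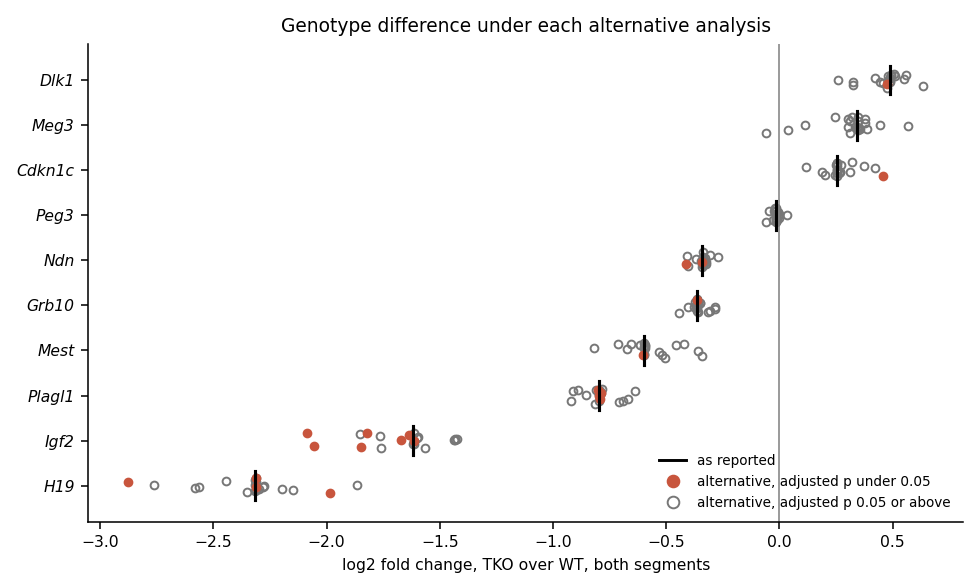
Log2 fold change of TKO over WT over both segments (horizontal axis) for each of the 10 genes under 21 alternative analyses (circles, filled where the adjusted p is under 0.05) and as reported (black line). Every circle of H19 lies between −2.88 and −1.86 and every circle of Igf2 between −2.09 and −1.42, while those of Meg3 run from −0.06 to 0.57.

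Over 21 alternatives, the log2 fold change of H19 ranged from −2.88 to −1.86 with adjusted p from 0.00208 to 0.225, and 4 of them passed. Igf2 ranged from −2.09 to −1.42 and passed in 7, with adjusted p from 1.05e-08 to 0.185. Plagl1 ranged from −0.92 to −0.64 and passed in 4, with adjusted p from 0.00163 to 0.278. The lowest p of Igf2 and of Plagl1, and 1 pass of each, came from a pairing of the replicate numbers chosen after seeing the data, and the next lowest were 1.31e-07 and 0.00559 with DESeq2. Summing the lumbar and thoracic library of each genotype and number gave 0 calls among the 10 genes, with H19 at an adjusted p of 0.0592, Igf2 at 0.120 and Plagl1 at 0.179. Cdkn1c ranged from 0.12 to 0.46 and passed in 1. That was the fit with the mitochondrial share of reads as a covariate, in which Igf2 was at −2.05 (adjusted p = 1.26e-06), Plagl1 at −0.80 (0.0187), Ndn at −0.41 (0.00870) and Cdkn1c at 0.46 (0.0238), while H19, at −2.56, had an adjusted p of 0.209. It called 4.73% of all tested genes.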

How the data were processed

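Spinal cord RNA went through a column kit and a stranded kit for polyadenylated RNA, per the labels' protocols, to give 8 libraries. The authors deposited 1 table per library with whole-number read counts per gene, RPKM and TPM. The deposited RPKM divides exon reads by exon length. The deposited TPM was not used. The submitters' processing notes name the build mm10. Aligner, counting program and strand setting: not given in the sources used here.

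Total gene reads were scaled with TMM factors, filtered with filterByExpr over the 4 groups and tested with edgeR 4.0.16 (R 4.3.3), quasi-likelihood, robust, with 1 mean per group over all 8 libraries and Benjamini-Hochberg adjustment over 17067 genes at 0.05. The SE is the log2 fold change over the root of the F value. CPM uses the TMM-adjusted library size. Libraries of a group differed by more than sampling noise, with a chi-square over its degrees of freedom of 14.6 to 65.7, and each counts once. The fit was tested on simulated data.

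Alternatives were DESeq2 1.42.0, limma 3.58.1 on log2(RPKM + 0.5), other filters, size factors and read classes, a replicate block, covariates and leaving out libraries. All 10 genes are named in every comparison. Of each other list, the up to 4 genes of smallest p and every imprinted or growth gene past 0.05 may be named, and for likeness the 3 genes of highest correlation, of which 1 is not reported here. The genes and lists were chosen with earlier results of these data known, as was the grouping into domains.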

Additional observations from a re-analysis of the deposited data

Results flagged for a closer look

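Peg3 differed in opposite directions between the segments, with every lumbar TKO library above and every thoracic TKO library below the WT libraries of its segment. The thoracic minus lumbar difference of the genotype effects was −0.52 on the log2 scale (unadjusted p = 0.0292, adjusted p = 0.852, edgeR). It ranged from −0.62 to −0.43 over 19 alternatives, with adjusted p from 0.112 to 1.00.

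Grb10 in lumbar TKO replicate 1, at 104.9 CPM, stood apart from the other TKO libraries, which had 81.2 to 83.4 CPM. The gap was 0.909 of the range of the 4 TKO libraries. It was the only such library among 20 groups of 4 tested, where chance gives about 1 in 20.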

How the results depend on the processing

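Over both segments, the 10 genes had 0 calls at an adjusted p under 0.05 in the reported fit. The count was 1 with no filter (Plagl1), 2 with uniquely placed reads (H19 and Igf2), 4 with the mitochondrial share as a covariate (Ndn, Igf2, Cdkn1c and Plagl1), 1 without both TKO replicate 2 libraries (Igf2) and 3 with DESeq2 (H19, Igf2 and Plagl1). Leaving out 1 library gave 0 to 2 calls. In the lumbar cord the covariate gave 2 (197 over all genes), DESeq2 gave 1 (41) and the 4 lumbar libraries alone gave 0 (5). In the thoracic cord the covariate gave 4 (987 over all genes), DESeq2 gave 2 (429) and the 4 thoracic libraries alone gave 1 (23). In the comparison of segments the covariate gave 1 (44 over all genes). The reported fits called 7, 6 and 14 genes in these comparisons. The cause was not tested.

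The replicate block over both segments gave 1 call, Igf2 (−1.67, adjusted p = 0.0220), and moved the count over all genes from 61 to 222. Correlations of same-numbered libraries were between −0.419 and 0.535. Between lumbar and thoracic cord they were 0.525 in TKO and −0.314 in WT. With 2 libraries per group the deviations from the group mean mirror each other. These values therefore cannot tell whether the numbers pair the libraries. A pairing with the lumbar WT numbers crossed, chosen after seeing the data, gave 6 calls among the 10 genes and 4760 among all genes. With the lumbar and thoracic libraries of a genotype and number summed, there were 0 calls among the 10 genes (Igf2 at an adjusted p of 0.120) and 9 among all genes.

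The count over all genes was 7 to 194 with 1 library left out, 672 with DESeq2, 807 with the covariate, 310 with no filter, 104 with uniquely placed reads, 84 without both TKO replicate 2 libraries, 6 with limma and 12 with exon reads.

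Signs changed for Meg3 without both TKO replicate 2 libraries (−0.060 over both segments, −0.48 in the thoracic cord) and with the covariate in the thoracic cord (−0.16). In the difference of effects, Igf2 was −0.25 with unique reads and Dlk1 0.12 without both TKO replicate 2 libraries. In the comparison of segments Meg3 was −0.0080 with the replicate block, −0.032 with the block of genotype by number, −0.20 without both TKO replicate 2 libraries and −0.065 with limma.
With 1 library left out, signs changed over both segments for Peg3 (−0.058 to 0.032), in the lumbar cord for Cdkn1c (−0.058 to 0.17) and in the thoracic cord for Meg3 (−0.48 to 0.57). In the difference of effects they changed for H19 (−0.74 to 1.29), Igf2 (−0.37 to 0.57), Dlk1 (−0.35 to 0.25), Meg3 (−1.04 to 0.013) and Mest (−0.36 to 0.42), and between segments for H19 (−0.18 to 0.71), Dlk1 (−0.085 to 0.23), Meg3 (−0.30 to 0.22) and Grb10 (−0.15 to 0.0090).

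Libraries of 2 per group limit the comparisons within a segment, and Mest and Plagl1 rest on 109 to 491 reads per library. H19 rests on 66 to 200 reads per TKO library and 397 to 1031 per WT library.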
